A study of Saccharomyces cerevisiae with 9 samples.

Results

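Transcript levels of budding yeast carrying the histone H3 substitutions K42A or K42Q were set against those of yeast carrying K42L or wild-type H3. The comparison takes 4 of the 9 arrays of the series, K42A (n = 2) and K42Q (n = 2), against the other 5, K42L (n = 2) and wild type (n = 3). In K42A lysine 42 of H3 is replaced by alanine, in K42Q by glutamine and in K42L by leucine. All strains derive from JPY12 and carry the H3 gene on the plasmid pEMH7, where the substitutions were made by site-directed mutagenesis. Each array holds RNA of 1 culture, a biological replicate according to the series design, grown in rich YPD medium to log phase at an A600 of about 0.7. The labels do not say whether the replicate cultures of a genotype came from separate transformants.

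This grouping was chosen from these same measurements, because K42A and K42Q share a response that K42L lacks. The differences between the 2 sides are therefore given as a description, with no test. Tests were made only within a side, for K42A against K42Q (directly, and as a difference between their effects at separate background levels) and for K42L against wild type.

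Lysine 42 lies in the core of the nucleosome, where the DNA enters and leaves the histone octamer, and the series title names it as a methylated residue that holds back transcription. Alanine removes most of the side chain, glutamine is commonly used in place of an acetylated lysine, and leucine is large and hydrophobic. In yeast, nutrient limitation and many kinds of damage raise a common set of genes through the factors Msn2 and Msn4, among them chaperone, trehalose, glycogen and antioxidant genes, while ribosome genes go down. Many other genes, such as those of meiosis, of the other mating type and of alternative nutrients, are held at low levels in haploid cells growing on glucose.

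The arrays were scaled to a common trimmed mean of 150.1, so all values are relative to the bulk of the RNA on an array. Listed probe sets not assigned to a single S. cerevisiae gene, such as those for another yeast species, were used here as the background. They divided the arrays into a higher and a lower background level. The higher level (median background 2.2 to 2.7) held K42A replicates 1 and 2 and wild-type replicates 2 and 3. The lower level (median 1.0 to 1.3) held K42Q and K42L replicates 1 and 2 and wild-type replicate 1. The labels name no such division. Both sides of the comparison hold arrays of both levels, but K42A and K42Q lie wholly in different levels, and K42L lies in the lower level alone. The first principal component of the arrays, with 58.1% of the variance, placed K42A and K42Q at scores of 11.96 to 16.3, and K42L and wild type at -12.6 to -9.3. The second, with 23.7%, followed the background level. The a-cell markers STE2, MFA1, MFA2, BAR1 and STE6 were abundant on all 9 arrays. The alpha-cell markers were low but present, as described further on. A probe set cannot read the substitution itself, so the H3 genes do not check the genotypes.

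Of 5449 genes measured, 4087 had a mean signal of at least 87.0 (the 25th percentile) and were tested. Among these, 106 genes (2.59%) were at least 2-fold higher on average in K42A and K42Q with no overlap between the 4 and the 5 arrays, and 5 (0.122%) were at least 2-fold lower. Without the size requirement 718 genes (17.6%) lay higher and 650 (15.9%) lower on all 4 arrays than on any of the 5. As deposited and with this filter, the genes past 2-fold were thus almost all higher, while smaller shifts ran in both directions in similar numbers. The filter took the mean over all arrays. A gene weak in K42L and wild type could thus pass through its K42A and K42Q signals, or the reverse. With no filter 402 genes were at least 2-fold higher and 6 lower. The balance of the smaller shifts depends on the scaling. The median difference of the tested genes was -0.006 as deposited, -0.14 with median centring and 0.22 with spike-in scaling across all arrays. Among the higher genes, FLR1 (1.01) and YLL053C (1.01) lay just inside the 2-fold limit, and PRM3 (0.995) and HSP104 (0.99) just outside it, on the log2 scale. Among the lower genes ENB1 (-1.01) and YLR126C (-1.02) lay just inside, and GPA1 (-0.99) and FET3 (-0.92) just outside.

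The largest difference among the tested genes was in TMA10 (YLR327C), a stress-induced gene of a ribosome-associated protein. Its signal was 366 and 439 on the K42A arrays and 646 and 473 on the K42Q arrays, against 47.5 and 51.3 on the K42L arrays and 83.8, 49.1 and 50.4 on the wild-type arrays. No K42A or K42Q array came near the other 5, and wild-type replicate 1 stood above the other 4 of its side. The mean difference was 3.10 ± 0.17 on the log2 scale (here and below with an SE from limma, n = 4 against 5). This SE takes the spread of arrays within the 4 genotypes, moderated toward that of genes of similar signal. The wild-type part of that spread spans both background levels. DDR2 (YOL052C-A), induced by many stresses, gave 616 and 739 on the K42A arrays and 734 and 609.6 on the K42Q arrays, against 59.6 and 91.4 on the K42L arrays and 78.4, 117 and 95.7 on the wild-type arrays. All 4 K42A and K42Q arrays were at a similar height, and the difference was 2.96 ± 0.15.

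MSC1 (YML128C), named for meiotic recombination between sister chromatids, had a signal of 306 and 344 on the K42A arrays and 382 and 360.2 on the K42Q arrays, against 71.9 and 78.2 on the K42L arrays and 75.3, 66.6 and 64.1 on the wild-type arrays. Its values were even within each side, with a difference of 2.29 ± 0.07. STR3 (YGL184C), for an enzyme of methionine synthesis, had 208 and 322 on the K42A arrays and 240.2 and 192 on the K42Q arrays, against 62.4 and 58 on the K42L arrays and 59.9, 60.4 and 56.8 on the wild-type arrays. The sides were again well apart, at 1.99 ± 0.12. NCA3 (YJL116C), a member of the SUN family, and PIR3 (YKL163W), a cell wall protein gene, differed by 2.11 ± 0.13 and 2.01 ± 0.13. YRO2 (YBR054W), related to a membrane heat shock protein, was uneven: it gave 267 and 170 on the K42A arrays and 536 and 642 on the K42Q arrays, against 156 and 165 on the K42L arrays and 169, 35.7 and 35.3 on the wild-type arrays. The sides did not overlap, but K42L and wild-type replicate 1 lay close to K42A, and the SE of its difference of 1.99 ± 0.42 was the widest among the 15 largest increases.

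**Figure D1:**
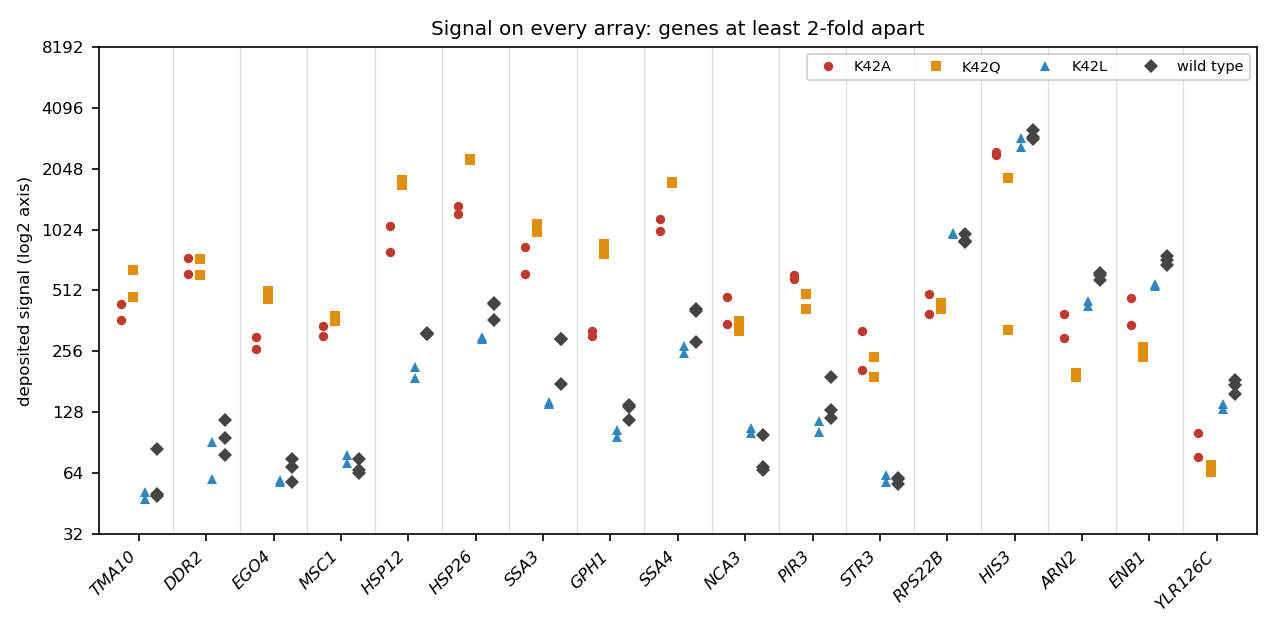
Deposited signal (log2 axis) of 17 genes at least 2-fold apart, with 1 point per array, for K42A, K42Q, K42L and wild type from left to right within each gene. TMA10 to STR3 lie higher in K42A and K42Q, and RPS22B to YLR126C lower. HIS3 has 1 K42Q array at 326, far below the others.

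The shared response for which the grouping was chosen can be described by background level. K42A minus wild-type replicates 2 and 3 uses the 4 arrays of the higher level, and K42Q minus K42L and wild-type replicate 1 uses the 5 of the lower level. Over the 4087 genes these differences had a Pearson correlation of 0.707 and a Spearman correlation of 0.665, as a description across genes, which are not independent and share their probe sets in both. These values restate the basis of the grouping and are no separate support for it. The sign was the same for 3103 genes (75.9%). At least 2-fold higher without overlap were 138 genes (3.38%) in the higher level and 115 (2.81%) in the lower, and 71 were in both, 51.4% of the first list and 61.7% of the second. At least 2-fold lower were 5 genes (0.122%) in the higher level and 11 (0.269%) in the lower. The 106 genes had a median of 1.35 in the higher level and 1.402 in the lower, with signs fixed by their selection.

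**Figure D2:**
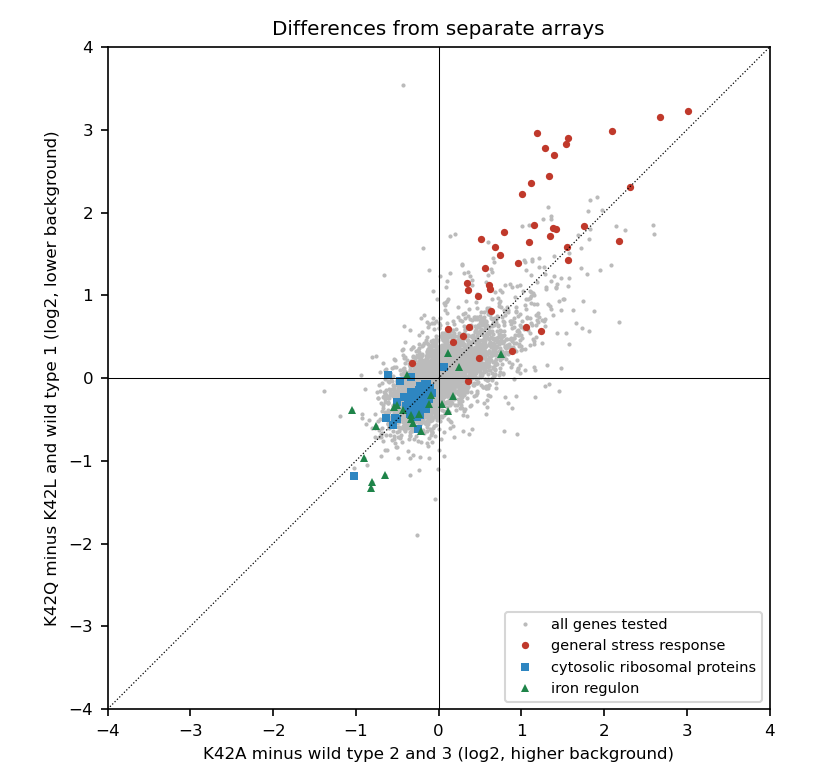
Each point is 1 of 4087 genes, with K42A minus wild-type replicates 2 and 3 on the x axis and K42Q minus K42L and wild-type replicate 1 on the y axis (log2). No array enters both axes. Stress genes lie in the upper right, above the diagonal for the most part, cytosolic ribosomal protein genes close to and below zero, and several iron regulon genes in the lower left.

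Genes of the general stress response had the highest median among the lists of at least 23 tested genes. Of 43 tested, 38 were higher without overlap and 0 lower, 26 of them at least 2-fold, with a median log2 difference of 1.32 against -0.01 for all genes tested. Over all genes tested 17.6% were higher and 15.9% lower without overlap, and 2.59% were at least 2-fold higher, which is the background for each list. The median signal over the list was 577 and 559 on the K42A arrays and 756 and 756 on the K42Q arrays, against 213 and 230.2 on the K42L arrays and 257, 226 and 214 on the wild-type arrays. The lowest K42A or K42Q median was 2.18 times the highest of the other 5. A further 14 members lay under the signal limit, and 13 of them were higher without overlap. Of all 1362 genes under that limit 46.3% were higher and 1.54% lower without overlap. Of the 106 genes, 26 were on this list and 52 were on none of the 44 lists examined.

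Chaperone genes divided by kind. All 6 tested members of the list of small heat shock proteins and the disaggregase were higher, 5 of them at least 2-fold. HSP26 (YBR072W), a small heat shock protein, had 1226 and 1338 on the K42A arrays and 2260.3 and 2288 on the K42Q arrays, against 296 and 302 on the K42L arrays and 364, 441 and 444 on the wild-type arrays. The K42Q arrays stood above the K42A arrays, and the mean difference was 2.23 ± 0.07. HSP12 (YFL014W), for a small membrane-associated stress protein, had 790 and 1063 on the K42A arrays and 1804 and 1699 on the K42Q arrays, against 213 and 189.6 on the K42L arrays and 317, 310.2 and 312 on the wild-type arrays. K42L was below wild type there, and the sides differed by 2.27 ± 0.08. HSP42, a second small heat shock protein, differed by 1.89 ± 0.09, and HSP104, the disaggregase, by 0.99 ± 0.11.

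Of 27 genes for Hsp70, Hsp90 and their partners, 8 were higher, 1 was lower and 18 overlapped, with a median of 0.20. The higher ones included the stress-inducible Hsp70 genes SSA3 and SSA4. SSA4 (YER103W) had 1009.9 and 1158 on the K42A arrays and 1767 and 1733 on the K42Q arrays, against 252 and 272 on the K42L arrays and 285, 404 and 417 on the wild-type arrays. Wild-type replicates 2 and 3 were above the other 3 arrays of their side, and the difference was 2.11 ± 0.11. SSA3 differed by 2.13 ± 0.16 and SSE2, a nucleotide exchange factor of Hsp70, by 1.76 ± 0.05. Of 22 chaperone genes of the endoplasmic reticulum, 2 were higher and 4 lower, and of 34 proteasome genes 1 was higher and 0 lower (median -0.03).

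Reserve carbohydrate genes were higher in both pathways. In trehalose metabolism 4 of 6 genes were higher and 0 lower, with differences of 1.47 ± 0.08 for TSL1, a subunit of trehalose synthase, and 1.17 ± 0.08 for NTH2, a trehalase. In glycogen metabolism 7 of 10 were higher and 1 lower. GPH1 (YPR160W), glycogen phosphorylase, had 324 and 306 on the K42A arrays and 772 and 867 on the K42Q arrays, against 96.6 and 104 on the K42L arrays and 117, 139.7 and 135 on the wild-type arrays. The lower K42Q value was 2.39 times the higher K42A value, and the mean difference was 2.11 ± 0.07. PGM2, phosphoglucomutase, differed by 1.76 ± 0.07 and GDB1, the debranching enzyme, by 1.56 ± 0.06. Of 25 glycolysis and fermentation genes 5 were higher (20%) and 3 lower (12%), the higher ones including the hexokinase gene HXK1 (1.32 ± 0.07) and TDH1 (1.05 ± 0.05).

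Antioxidant, proteolytic and DNA damage genes followed in part. Of 26 peroxide and superoxide defence genes 12 were higher and 3 lower, with TSA2 (a peroxiredoxin, 1.95 ± 0.17) and PRX1 (the mitochondrial one, 1.61 ± 0.05) among the higher. Of 8 autophagy genes 7 were higher and 0 lower. ATG8 (YBL078C), for the protein that coats autophagosome membranes, had 273 and 327 on the K42A arrays and 218 and 186 on the K42Q arrays, against 99.9 and 104 on the K42L arrays and 130.1, 113 and 121 on the wild-type arrays. The sides were separate at 1.12 ± 0.08. Of 9 genes for vacuolar proteases and their inhibitors 6 were higher and 0 lower, and of 23 genes of the TCA and glyoxylate cycles 8 were higher and 0 lower, led by PCK1, a key enzyme of gluconeogenesis, at 1.73 ± 0.10.

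Of 19 DNA damage genes 10 were higher and 1 lower, with a median of 0.43. HUG1 (YML058W-A), an inhibitor of ribonucleotide reductase induced by DNA damage, had 885 and 1060.1 on the K42A arrays and 1174 and 888 on the K42Q arrays, against 500.3 and 499 on the K42L arrays and 495, 566 and 573 on the wild-type arrays. The sides did not overlap, at 0.92 ± 0.09. RAD2, a repair nuclease, differed by 0.87 ± 0.12 and RAD54, a recombination protein on the list of G1 and S phase genes, by 0.68 ± 0.06.

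Cell surface genes held some large single differences without a shift of the list. Of 42 genes for PIR and other cell wall proteins, 8 were higher (19%, near the share of all tested genes) and 4 lower, with a median of -0.06. At least 2-fold higher were 7 of the 42, a larger share than the 2.59% of all tested genes. FLO8 (YER109C), a regulator of flocculation, had 289.5 and 385 on the K42A arrays and 281 and 236 on the K42Q arrays, against 107 and 105 on the K42L arrays and 101, 86.9 and 86 on the wild-type arrays. On the list of flocculation and filamentous growth, 3 of 12 genes were higher and 1 lower, with a median of -0.02. These 3, FLO8, FLO11 and FLO9, were all at least 2-fold higher. FLO11, a surface adhesin gene, differed by 1.54 ± 0.09 and FLO9, a flocculin gene, by 1.29 ± 0.08. FLO genes are close relatives, so their probe sets may share signal. STE11 (YLR362W), a kinase of the pheromone and filamentation pathways, had 327 and 290.4 on the K42A arrays and 243 and 256 on the K42Q arrays, against 125 and 102 on the K42L arrays and 97.5, 98.4 and 109 on the wild-type arrays, a difference of 1.39 ± 0.08. FLO8 and STE11 are known as genes with an internal start site that can be used when chromatin over transcribed genes is disturbed. A single probe set does not give the start of a transcript, so these signals do not show where it lay. STE11 was named after its values were seen.

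In inositol and phospholipid synthesis 4 of 18 genes were higher and 4 lower (22.2% each), near the shares of all tested genes. The 3 farthest from 0 were INO1, the inositol synthase, at 1.43 ± 0.17, OPI3, a phospholipid methyltransferase, at 1.06 ± 0.10 and URA7, a CTP synthase, at -0.39 ± 0.07. In sterol synthesis 0 of 25 were higher and 10 lower (40%), at a median of -0.14. HMG1, HMG-CoA reductase, was at -0.41 ± 0.05 and ERG5, a sterol desaturase, at -0.42 ± 0.05. Under quantile and cyclic loess scaling the median of this list was 0.00 and 0.01, and with spike-in scaling across all arrays it was 0.09.

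**Figure D3:**
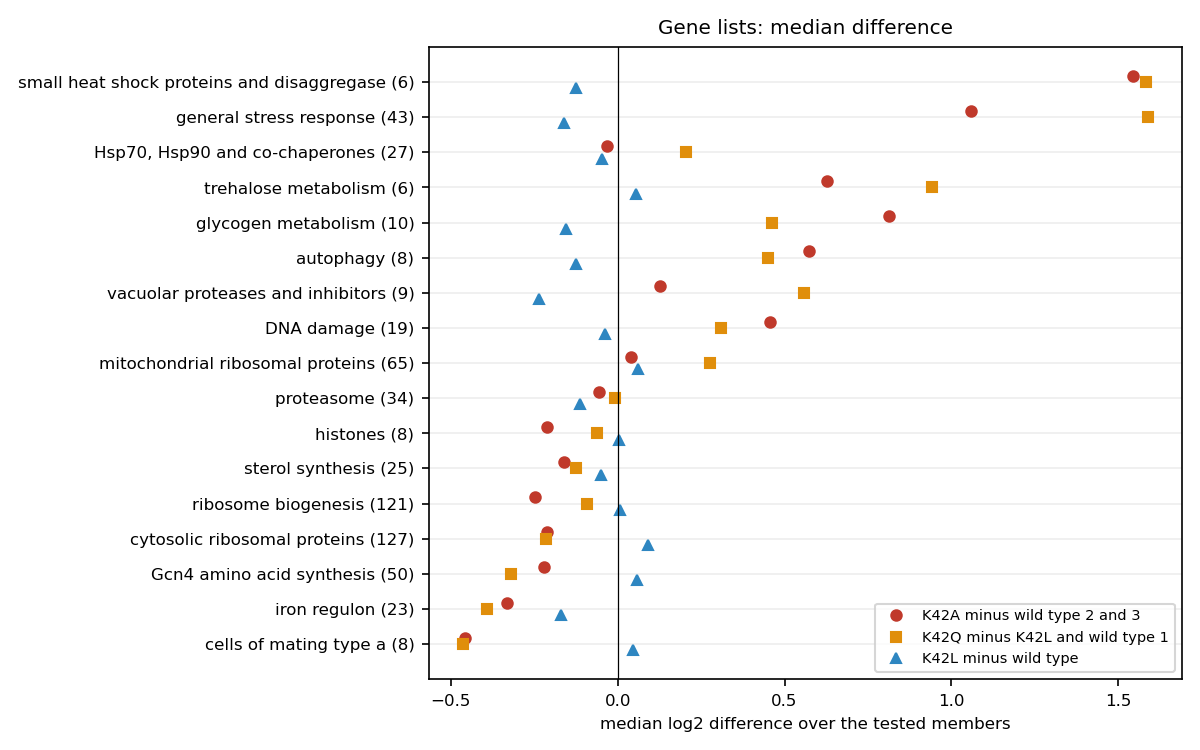
Median log2 difference over the tested members of 17 gene lists (number tested in parentheses). Circles show K42A minus wild-type replicates 2 and 3, squares K42Q minus K42L and wild-type replicate 1, and triangles K42L minus wild type. The stress list lies at 1.06 and 1.59 in K42A and K42Q, while K42L lies at -0.16.

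Ribosome genes showed small differences that depended on the scaling. Of 127 cytosolic ribosomal protein genes 0 were higher and 27 lower, with a median of -0.24. That is 21.3% lower, against 15.9% of all tested genes. These genes had a median signal of 1845, and the highest decile of all genes, with a median signal of 1408, had a median difference of -0.21 with 33.8% lower. RPS22B (YLR367W) was the only one past 2-fold, at 491 and 393 on the K42A arrays and 444 and 416 on the K42Q arrays, against 988 and 969 on the K42L arrays and 968, 885 and 897 on the wild-type arrays. The 4 K42A and K42Q arrays were close together and well below the other 5, a difference of -1.11 ± 0.07. RPL22B followed at -0.58 ± 0.07. Of 121 ribosome biogenesis genes 1 was higher and 36 lower (median -0.17), and of 23 genes for RNA polymerases I and III 1 was higher and 8 lower (median -0.19). These medians depended on the scaling. For cytosolic ribosomal protein genes it was -0.05 with quantile scaling, -0.02 with cyclic loess and -0.01 with spike-in scaling across all arrays. For ribosome biogenesis genes it was -0.19, -0.14 and 0.06 with the same scalings, so that the sign turned with the last, as it did for RNA polymerases I and III (0.04). Of 65 mitochondrial ribosomal protein genes 12 were higher (18.5%, against 17.6% of all tested genes) and 1 lower, with a median of 0.16 (0.01 to 0.39 over the scalings tried).

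Iron uptake genes held 2 of the 5 genes past 2-fold lower. Of 23 genes of the iron regulon 0 were higher and 11 lower, with a median of -0.40 and, over the scalings tried, of -0.54 to -0.18. ARN2 (YHL047C), a siderophore transporter, had 392.3 and 297 on the K42A arrays and 200.1 and 192 on the K42Q arrays, against 453 and 429 on the K42L arrays and 612, 576 and 627 on the wild-type arrays. The K42Q arrays were the lowest, K42A stood between these and K42L, and the difference was -1.04 ± 0.08. ENB1, a transporter of another siderophore, differed by -1.01 ± 0.09, SIT1 by -0.88 ± 0.08 and FET3, the copper-dependent oxidase of iron uptake, by -0.92 ± 0.07. K42L was also below wild type, by -0.46 in ARN2, -0.41 in ENB1, -0.36 in SIT1 and -0.27 in FET3. None of these was called between K42L and wild type (limma, adjusted p of 0.0952 to 0.204). The median of K42L minus wild type over the list was -0.17. In SIT1, K42A replicate 1 (724.5) lay close to K42L (754.5 and 728.5). FIT2, a cell wall protein that retains siderophores, had 797 and 619 on the K42A arrays and 725 and 604 on the K42Q arrays, against 751 and 733 on the K42L arrays and 1189, 1443 and 1451 on the wild-type arrays. All 3 substitutions lay below wild type there, so its sides overlapped.

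Of 50 amino acid synthesis genes under the activator Gcn4, 1 was higher and 19 lower (median -0.27, and -0.40 to -0.04 over the scalings tried). LEU9, of leucine synthesis, was at -0.70 ± 0.06. Of 24 G2 and M phase genes 2 were higher and 9 lower, with the B-type cyclin genes CLB1 at -0.77 ± 0.13 and CLB2 at -0.68 ± 0.10. HIS3 (YOR202W), of histidine synthesis, was past 2-fold only through 1 array. It had 2480 and 2383 on the K42A arrays and 1852 and 326 on the K42Q arrays, against 2906 and 2632 on the K42L arrays and 3171, 2872 and 2938 on the wild-type arrays. K42Q replicate 2 stood alone, and without it the difference was -0.38.

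Mating type genes of both kinds differed between the sides, in opposite directions. The summed signal of the 5 a-cell markers was 3592 and 3411 in K42A and 3644 and 4226 in K42Q, against 5566 and 5239 in K42L and 5940, 4912 and 5022 in wild type. Over the 8 tested genes specific to a cells 5 were lower without overlap and 0 higher, with a median of -0.53 (-0.66 to -0.30 over the scalings tried). STE2, the receptor for alpha factor, had 1353 and 1255 on the K42A arrays and 1175 and 1343 on the K42Q arrays, against 2021 and 1786 on the K42L arrays and 2088, 1809 and 1838 on the wild-type arrays. K42A and K42Q were lower by a difference of -0.57 ± 0.07.

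The summed signal of the 4 alpha-cell markers was 336 and 369 in K42A and 283 and 257 in K42Q, against 153 and 158 in K42L and 170, 212 and 199 in wild type. STE3 (YKL178C), the receptor for a factor, had 56.7 and 61.6 on the K42A arrays and 62.7 and 59.1 on the K42Q arrays, against 34.1 and 37.9 on the K42L arrays and 29, 29.6 and 27.3 on the wild-type arrays. All 4 alpha markers were higher without overlap in the deposited values, with a median difference of 0.90, and 3 of them lay under the signal limit. Of all genes under that limit 46.3% were higher without overlap, and the lowest decile of signal had a median of 0.81. After quantile scaling 1 of the 4 was higher without overlap, with a median of 0.25, and after cyclic loess 1, with 0.39. HMLALPHA1, a probe set for the regulator of alpha genes, lay between 2.6 and 7.9 on the 9 arrays, with overlap. Whether a few cells or all cells carried the higher signals cannot be told apart in RNA of whole cultures.

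Of 22 genes of the pheromone pathway 5 were higher (22.7%) and 4 lower (18.2%), near the shares of all tested genes, 17.6% and 15.9%. GPA1, the G protein subunit that restrains the pathway, differed by -0.99 ± 0.08, while FIG2 (YCR089W), a surface adhesin of mating cells, had 671 and 859.9 on the K42A arrays and 338 and 388 on the K42Q arrays, against 150.3 and 137 on the K42L arrays and 136, 176 and 182 on the wild-type arrays. K42A was above K42Q, and the sides differed by 1.76 ± 0.11.

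In the deposited values the direction of the difference depended on how strongly a gene was expressed. With genes divided into deciles by mean signal over all 9 arrays, the lowest decile (545 genes) had a median signal of 28.7 and 30.6 on the K42A arrays and 28.3 and 25.7 on the K42Q arrays, against 14.3 and 14.2 on the K42L arrays and 13.6, 15.4 and 14.5 on the wild-type arrays. The lowest K42A or K42Q median was 1.67 times the highest of the other 5. The median log2 difference was 0.81, with 0.88 at the higher and 0.76 at the lower background level, while K42L minus wild type had -0.06. In this decile 294 genes were higher without overlap and 3 lower. The median then declined from decile to decile, to -0.21 in the highest, where 18 genes were higher and 184 lower.

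The width of the distribution differed accordingly. The 10th percentile of gene signals was 49.9 and 50.8 in K42A and 51.1 and 45.9 in K42Q, against 33.1 and 33.5 in K42L and 31.7, 31.5 and 30.8 in wild type. The highest signal on an array was 2424 to 2750 in K42A and K42Q and 2872 to 3436 in K42L and wild type. Genes with a signal under 50 numbered 547 and 530 in K42A and 533 and 610 in K42Q, against 832 and 810 in K42L and 856, 899 and 897 in wild type. The part of the background in this was not tested. Ratios of 3 prime to 5 prime probe sets overlapped between the sides for ACT1, SPT15 and WBP1. For TDH1 they were 1.17 to 1.41 in K42A and K42Q and 1.48 to 1.66 in K42L and wild type. The part of RNA quality in the shift was not tested.

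**Figure D4:**
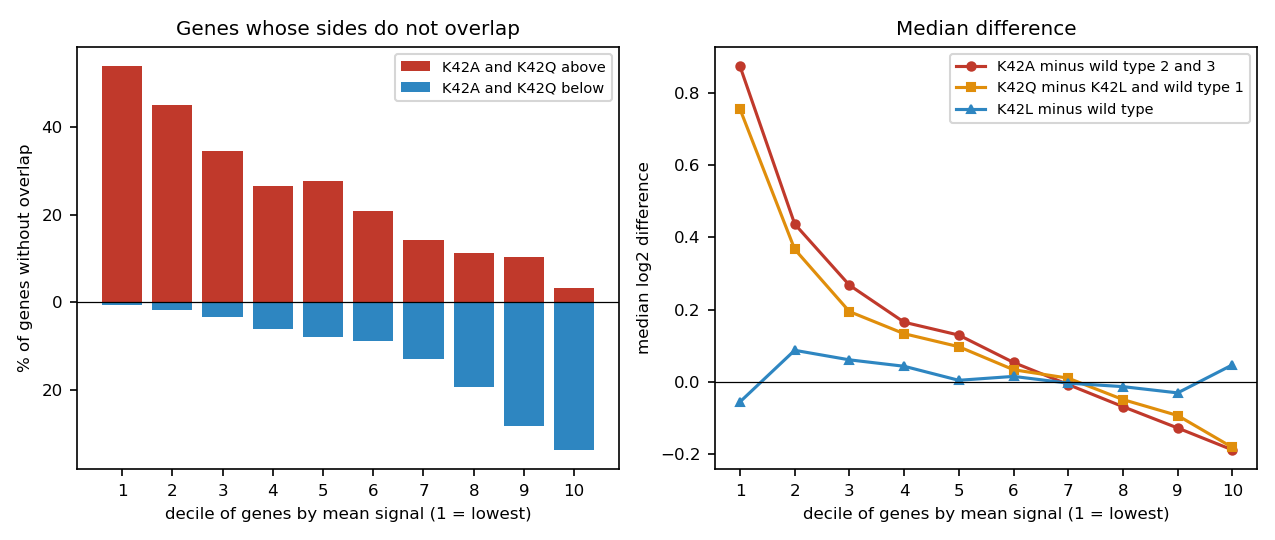
Left, share of genes in each decile of mean signal whose K42A and K42Q arrays all lie above (upward bars) or below (downward bars) the K42L and wild-type arrays. Right, median log2 difference per decile for K42A minus wild-type replicates 2 and 3, K42Q minus K42L and wild-type replicate 1, and K42L minus wild type. The lines of K42A and K42Q decline from the lowest to the highest decile, and the K42L line stays between -0.06 and 0.09.

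The raised median of the lowest decile remained under each scaling by a single factor per array and was lost where the distributions were aligned. Quantile and cyclic loess scaling force the distributions of the arrays together, and under these the median of the lowest decile was -0.035 and 0.0014. With median centring it was 0.67, and with spike-in scaling 1.03 across all arrays and 0.94 within each background level. Of the 1362 genes under the signal limit, 631 (46.3%) were higher without overlap and 21 (1.54%) lower as deposited, 296 (21.7%) and 1 (0.0734%) of them at least 2-fold. After quantile scaling 218 were higher and 239 lower, and after spike-in scaling across all arrays 294 and 0. At least 2-fold higher without overlap were 85 of these genes after quantile scaling and 93 after cyclic loess.

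Among these weak genes, those of meiosis and sporulation were picked after their values were seen. Of 66 measured, 64 lay under the limit, 48 were higher without overlap and 0 lower, and the median was 1.05. Their median signal was 23.0, which lies in the lowest decile of all genes. In that decile 53.9% of genes were higher and 0.55% lower without overlap, with a median difference of 0.81. After quantile scaling 22 were higher and 2 lower, with a median of 0.29. Of all genes under the limit 16% were then higher and 17.5% lower, with a median of -0.07. IME1 (YJR094C), the master regulator of entry into meiosis, had 79.8 and 70.3 on the K42A arrays and 63.4 and 55.4 on the K42Q arrays, against 34.9 and 41.9 on the K42L arrays and 39.2, 38.2 and 35.1 on the wild-type arrays. IME2, a kinase of the same step, had 98.6 and 128 on the K42A arrays and 99.5 and 83.1 on the K42Q arrays, against 43.1 and 40.5 on the K42L arrays and 46.8, 51.1 and 52.7 on the wild-type arrays. Neither gene overlapped between the sides, with differences of 0.82 ± 0.10 and 1.12 ± 0.10.

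NDT80 (YHR124W), the factor of middle meiotic genes, had 42.9 and 52.1 on the K42A arrays and 48.1 and 40.1 on the K42Q arrays, against 15.7 and 17.5 on the K42L arrays and 16.5, 16.7 and 14.1 on the wild-type arrays. The lowest K42A or K42Q value was 2.29 times the highest other one, and the difference was 1.505 ± 0.12. SPS100, of spore wall formation, had 42.5 and 63.6 on the K42A arrays and 28.9 and 27.6 on the K42Q arrays, against 8.3 and 8.4 on the K42L arrays and 4.7, 4.1 and 9.8 on the wild-type arrays. Its difference of 2.52 ± 0.26 was uneven, since K42A was above K42Q.

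Other weak genes with wide differences included FIG1 (of mating, 2.46 ± 0.10), PRM2 (a membrane protein induced by pheromone, 2.62 ± 0.17), HSP30 (a plasma membrane stress protein, 2.74 ± 0.13), HXT5 (a hexose transporter of slow growth, 2.48 ± 0.16) and JLP1 (an enzyme that frees sulphur from sulphonates, 2.68 ± 0.15). HSP30 (YCR021C) had 169 and 150.4 on the K42A arrays and 177 and 162 on the K42Q arrays, against 22.2 and 27.2 on the K42L arrays and 28.6, 27.1 and 19.6 on the wild-type arrays. The nearest values of the sides were 5.26-fold apart. PHO89, a phosphate transporter, was wider but uneven, at 3.17 ± 0.59, with 224 and 319 on the K42A arrays and 86.5 and 81.4 on the K42Q arrays, against 24.2 and 13.4 on the K42L arrays and 3.6, 35.2 and 30.7 on the wild-type arrays. Only 8 genes passed the 95th percentile of the background on all 4 K42A and K42Q arrays and on none of the 5 others, among them the meiotic genes MND1 and IME4, and 0 genes the other way round. These genes were named after their values were seen.

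**Figure D5:**
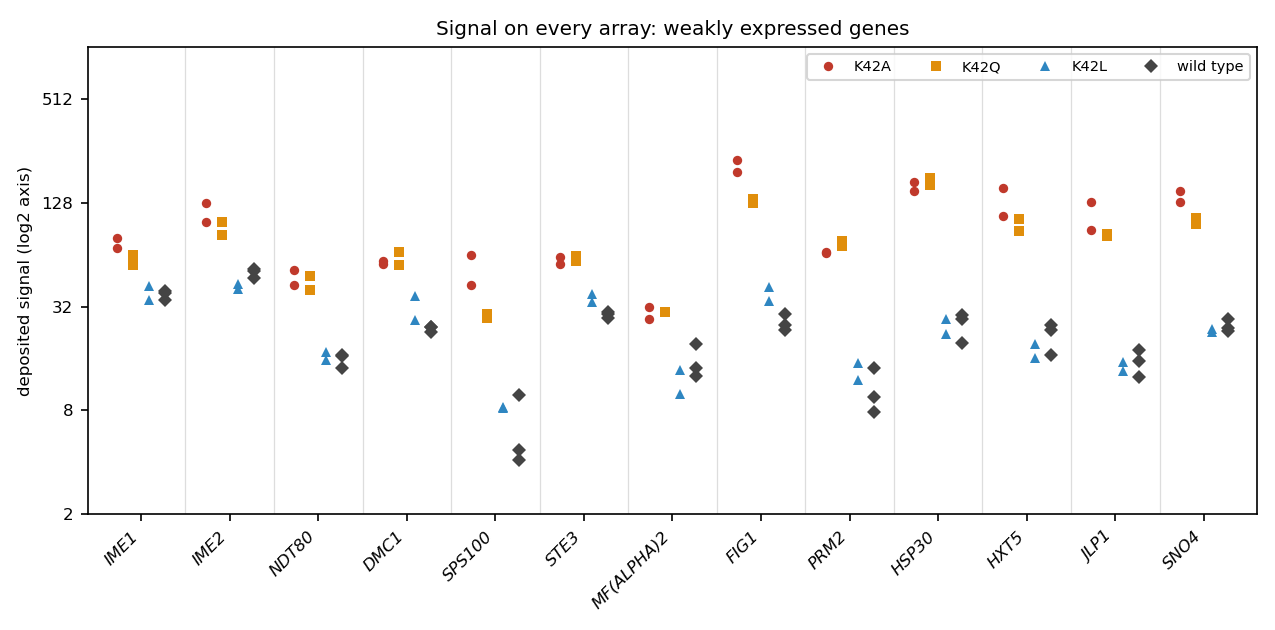
Deposited signal (log2 axis) of 13 weakly expressed genes, with 1 point per array, for K42A, K42Q, K42L and wild type from left to right within each gene. In each gene the 4 K42A and K42Q points lie above the 5 others.

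Weak genes near chromosome ends differed more. Among the lowest 3 deciles of signal, the 10 outermost genes of each end (124 genes) had a median difference of 0.91 with 77 higher and 1 lower, and the genes beyond the 30 outermost (1357 genes) had 0.38 with 576 higher and 27 lower. The outermost genes were also weaker, with a median signal of 39.6 against 57.7. In the other 7 deciles the medians were 0.18 for 102 outermost genes and -0.03 for 3279 genes further in. After quantile scaling the weak outermost genes had a median of 0.26, with 38 higher and 12 lower. Many of them belong to families of near copies whose probe sets may share signal.

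In the deposited values longer weak genes were more often higher without overlap. In 5 length classes of the lowest 3 deciles, from the shortest to the longest, with median gene lengths of 358.5, 792, 1170, 1650 and 2404.5 bases, the shares were 32.3%, 36.2%, 41.7%, 54.3% and 58.3%. The median differences were 0.48, 0.32, 0.36, 0.47 and 0.48, with no steady order. The median signals of these classes were 28.0, 53.2, 62.3, 58.1 and 68.2, so the shortest class was also the weakest. From the lowest decile of signal up, the shares higher in these 3 deciles were 53.9%, 45.1% and 34.5%. The part of signal in the order by length was not tested.

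Within their side, K42A and K42Q were tested against each other. By limma with Benjamini-Hochberg adjustment, 407 genes (9.96%) were called higher in K42A and 333 (8.15%) lower. Of the 106 genes 22 were called higher in K42A and 25 lower, with a median difference of 0.00. K42A and K42Q lie wholly in different background levels, so the direct contrast alone does not separate the mutants from the background level. Taking each mutant against the other arrays of its own level (wild type alone for K42A, K42L and wild-type replicate 1 for K42Q) and testing the difference of these differences, 380 genes (9.3%) were called higher and 361 (8.83%) lower, and 176 genes (4.31%) were called higher and 144 (3.52%) lower by both tests. Among the 106 these were 8 and 21. With the background level as a block in the direct test, 357 genes were called higher in K42A and 405 lower. The effect of the level then rests on the wild-type arrays, of which only replicate 1 has the lower level.

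Stress genes were among those stronger in K42Q. Of the 43 tested genes of the general stress response 1 was called higher in K42A and 21 lower by the direct test, against 9.96% and 8.15% of all tested genes. The list's median was 1.06 in K42A and 1.59 in K42Q against the arrays of their level. GPH1 was lower in K42A by a log2 difference of -1.38 ± 0.11 (adjusted p of 0.000772) and of -1.76 ± 0.13 (adjusted p of 2.31e-05) as a difference of differences. PGM2 had -1.06 ± 0.11 (adjusted p of 0.00142), HSP12 -0.93 ± 0.12 (adjusted p of 0.00296) and HSP26 -0.83 ± 0.10 (adjusted p of 0.00254). GRE3, an aldose reductase induced by stress, had -0.86 ± 0.09 (adjusted p of 0.00132). All 4 were called in the same direction by the difference of differences. HSP31, of a chaperone family, had -0.97 ± 0.18 (adjusted p of 0.00949). Other stress genes did not pass, such as DDR2 at 0.01 ± 0.22 (adjusted p of 0.976) and TMA10 at -0.46 ± 0.25 (adjusted p of 0.208), which does not show that these were equal. With spike-in scaling across all arrays the signs of GRE3 and HSP26 turned. The mean spike-in signal was 170 and 153 on the K42A arrays and 300 and 298 on the K42Q arrays. That scaling therefore raises every gene in K42A against K42Q by the same amount.

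The genes of the 106 stronger in K42A were led by FIG2, which rose by 1.07 ± 0.16 in K42A against K42Q (adjusted p of 0.00483) and YJL047C-A, a short open reading frame of no known role, by 1.01 ± 0.16 (adjusted p of 0.00604). DIA1, linked to invasive growth, rose by 0.91 ± 0.15 (adjusted p of 0.00619). These 3 were called by the difference of differences as well. SAM3, a permease, and PAU24, of the seripauperin family, rose by 0.97 ± 0.21 and 0.84 ± 0.14 (adjusted p of 0.0149 and 0.00608). They were not called by the difference of differences (adjusted p of 0.0589 and 0.255). ARN2 is not among the 106 but among the 5 lower genes, and it was less reduced in K42A than in K42Q. K42A was above K42Q by 0.80 ± 0.12 (adjusted p of 0.00432) in ARN2, which was not called by the difference of differences (adjusted p of 0.112).

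Among all genes called, the cell wall mannoprotein genes DAN1, TIR4 and TIR2, known from oxygen-poor growth, were the farthest above in K42A. DAN1 (YJR150C) had 1322 and 1378 on the K42A arrays and 474 and 306 on the K42Q arrays, against 1069 and 1118 on the K42L arrays and 962, 1393 and 1401 on the wild-type arrays. K42Q alone was low, and K42A was higher by 1.83 ± 0.22 (adjusted p of 0.00254). TIR4 and TIR2 rose by 1.72 ± 0.21 and 1.32 ± 0.17 (adjusted p of 0.00254 and 0.00293). By the direct test 8 of 18 PAU, DAN and TIR genes were called higher in K42A and 0 lower, against 9.96% and 8.15% of all tested genes.

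CTR3, CTR1 and MTD1 were the farthest below in K42A among all genes called. CTR3 (YLR411W), a copper transporter, had 208 and 73.6 on the K42A arrays and 964 and 1010.4 on the K42Q arrays, against 641 and 672 on the K42L arrays and 536, 59.1 and 77.8 on the wild-type arrays. The low CTR3 values are those of the higher background level in both K42A and wild type. K42A was lower than K42Q by a log2 difference of -2.998 ± 0.87 (adjusted p of 0.0427), while the difference of differences was 0.18 ± 0.45 (adjusted p of 0.828). CTR1, the other transporter, had -2.45 ± 0.43 (adjusted p of 0.00723) and -0.80 ± 0.23 (adjusted p of 0.0357) in the same measures. MTD1, of folate metabolism, had -1.55 ± 0.27 (adjusted p of 0.00763) and -0.62 ± 0.12 (adjusted p of 0.0062). COX17, a copper chaperone gene on the copper list, had -1.03 ± 0.09 (adjusted p of 0.000772) and -0.96 ± 0.16 (adjusted p of 0.00236), nearly the same by both tests. Of 65 mitochondrial ribosomal protein genes 32 were called lower in K42A and 0 higher by the direct test, against 8.15% and 9.96% of all tested genes. That test sets arrays of different background levels against each other. With spike-in scaling across all arrays only 3 of all tested genes were called lower in K42A.

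On the other side, few genes were called between K42L and wild type. Of 4087 genes 13 (0.318%) were called higher and 14 (0.343%) lower by limma, 0.661% in all. Of the 106 genes 43 lay above wild type in K42L and 63 below, with a median of -0.08, and 5 were called higher and 2 lower. The general stress list had a median of -0.16 with 0 members called higher and 1 lower. K42L was put beside wild type because it lacks the shared response, and the 106 genes were picked with both below K42A and K42Q. The small K42L differences on these genes and on the stress list therefore restate the grouping and are no separate support for it.

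The 5 genes called higher, none of them past the threshold with the replicate block, with the compared groups alone or without either K42L array, were GTT2, FMP46, BIO2, YGR201C and APE1. GTT2 (YLL060C), a glutathione transferase, had 204 and 214 on the K42A arrays and 196 and 199.8 on the K42Q arrays, against 161 and 154 on the K42L arrays and 76, 43.8 and 48.8 on the wild-type arrays. K42L lay between wild type and the other mutants, above wild type by 1.53 ± 0.19 (adjusted p of 0.0148). FMP46, a mitochondrial protein gene, had 254 and 258 on the K42A arrays and 296 and 286 on the K42Q arrays, against 148 and 142 on the K42L arrays and 85.9, 73.7 and 74.5 on the wild-type arrays. It also lay between, at 0.90 ± 0.09 (adjusted p of 0.00283). BIO2, biotin synthase, rose by 0.82 ± 0.14 (adjusted p of 0.0441), YGR201C, an uncharacterised gene, by 0.59 ± 0.08 (adjusted p of 0.024) and APE1, a vacuolar aminopeptidase, by 0.57 ± 0.08 (adjusted p of 0.024).

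The 2 called lower were HSP12 and DDI3, a gene induced by DNA damage, and both were likewise lost in those settings. With the background level as a block BIO2, HSP12 and DDI3 were not called. HSP12 was below wild type in K42L by a log2 difference of -0.64 ± 0.11 (adjusted p of 0.0451), the direction opposite to that of K42A and K42Q. DDI3 had 138 and 173 on the K42A arrays and 135 and 128 on the K42Q arrays, against 49.5 and 54.4 on the K42L arrays and 79.9, 84 and 85.6 on the wild-type arrays. K42L was lower than wild type by -0.68 ± 0.11 (adjusted p of 0.0353), while K42A and K42Q were above both.

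Among all genes called, FET4, a low-affinity metal transporter, was with GTT2 and FMP46 among the 3 largest increases of K42L, at 1.22 ± 0.17 (adjusted p of 0.024). BNA1, of NAD synthesis, KDX1, a kinase homologue, and FIT2 were the 3 largest decreases among the genes called, at -0.94 ± 0.08, -0.89 ± 0.09 and -0.87 ± 0.13 (adjusted p of 0.00221, 0.00283 and 0.0279). Only wild-type replicate 1 shares the background level of K42L, and without that array 689 genes were called higher and 675 lower, so that the small number of calls rests on it. With the background level as a block 13 were called higher and 6 lower.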

How the data were processed

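RNA of 9 cultures was measured on 1-colour Affymetrix yeast arrays. The deposited values are signal intensities on a linear scale, made with GCOS 1.4 and MAS5 per the submitters' processing notes; the scaling target was not given in the sources used here. Values entered as log2 without rescaling, with 126 of 98352 values at 0 set to 0.1. The brightest probe set stood for each of 5449 genes, and 1362 under the 25th percentile of mean signal (87.0) were not tested. Background was read from 1747 listed probe sets that were not assigned to a single S. cerevisiae gene, which may include sets listed for several genes.

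The pooled comparison got no test. K42A against K42Q, K42L against wild type and the difference of differences were tested with limma 3.58.1 in R 4.3.3, with 1 mean per group over all 9 arrays, an intensity trend and Benjamini-Hochberg adjustment over 4087 genes (adjusted p under 0.05). The model was tested on simulated data. Gene order and length came from RefSeq's table of assembly R64. Figures were drawn with Python 3.11.15.

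The comparison, members, lists and rule for naming genes were chosen with earlier results of these data known, and 5 of 44 lists after values were seen here. The rule named, among genes without overlap, the 15 largest differences above 0 and the 12 below, the 3 largest of each list with at least 4 tested members, the 6 largest called in each direction among genes past 2-fold, the 3 largest called of all, 2 genes on either side of each 2-fold limit, and the H3 and marker genes. Alternatives were other scalings, filters, probe set rules, fold thresholds, an added 16 before log2, blocks, the compared groups alone and leaving out each array. The number of arrays limits the precision.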

Additional observations from a re-analysis of the deposited data

Results flagged for a closer look

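In TMA10 the signal of 83.8 on wild-type replicate 1 lay apart from the other 4 K42L and wild-type arrays, and in HIS3 the signal of 326.3 on K42Q replicate 2 lay apart from the other 3 K42A and K42Q arrays. These were the 2 outlying values in 64 checks by Dixon's criterion, which chance meets in about 1 in 20 groups.

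Of 27 genes with the largest pooled differences, 11 differed between the background levels when the K42A difference was tested against the K42Q difference (limma, adjusted p under 0.05). Of these, 6 were weaker in K42A among the stress genes, with log2 differences of -0.88 in EGO4, -1.35 in HSP12, -1.30 in HSP26, -1.49 in SSA3, -1.76 in GPH1 and -1.30 in SSA4. NCA3 at 0.86 and YRO2 at 0.74 had a larger difference in K42A, each mutant being taken against the other arrays of its level. The YRO2 signal itself was lower in K42A (267 and 170) than in K42Q (536 and 642). Its reference arrays differed, with 35.7 and 35.3 on wild-type replicates 2 and 3 against 156 to 169 on K42L and wild-type replicate 1. NCA3, YRO2 and SSA3 were not called between K42A and K42Q directly (limma, adjusted p of 0.382, 0.129 and 0.134). Among the genes lower than in K42L and wild type, SIT1 at 0.52 and RSN1 at 0.84 were less reduced in K42A than in K42Q, and YKR075C at -0.73 was more reduced.

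In data outside the comparison, the control probe set at the 3 prime end of 25S ribosomal RNA was higher in K42A and K42Q without overlap, by 1.46 on the log2 scale. Of the 6 ribosomal RNA probe sets 2, both of 25S, were without overlap and 4 overlapped, among these the 5 prime 25S set at -0.39 and the middle 25S set at 0.51. Its signal was 252 and 558 on the K42A arrays and 105 and 98.9 on the K42Q arrays, against 87.6 and 79.1 on the K42L arrays and 89.7, 48.3 and 59.6 on the wild-type arrays. Of 238 probe sets with no listed gene that passed the background on all 9 arrays, 64 were higher without overlap, 22 of them at least 2-fold, and 9 were lower. The share higher was 26.9%, against 24.8% of all 5449 measured genes.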

How the results depend on the processing

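The count of 106 genes at least 2-fold higher was within 1.5 times of itself under all scalings, probe set rules and background level settings run, and 93 to 118 without 1 array in turn. It was 402 with no filter on low signals, 54 above the 50th percentile, 718 with no fold threshold, 274 at 1.5-fold and 34 at 3-fold. The count of 5 lower genes was 8 with median centring, 1 with cyclic loess, 0 with spike-in scaling across all arrays and 0 within each background level, 2 with 16 added, 11 within the lower background level, 3 with the mean of the 4 group means, 650 with no fold threshold, 45 at 1.5-fold and 0 at 3-fold. It was 2 to 6 without 1 array, with 2 without K42Q replicate 1 and 3 without K42Q replicate 2, wild-type replicate 1 or wild-type replicate 3. For K42A against K42Q, 407 genes called higher became 2422 with spike-in scaling across all arrays, 211 within each level, 656 with the compared groups alone and 64 to 188 without 1 array (any of the 4, the lone array then assumed to vary like the other groups). The 333 called lower became 542 with quantile scaling, 3 and 219 with the spike-in scalings, 636 with the groups alone and 59 to 153 without 1 array. For K42L against wild type, 13 called higher became 2 with spike-in scaling across all arrays, 25 with no filter and 0 with the groups alone. The 14 called lower became 3 with spike-in scaling within each level, 8 with 16 added, 6 with the background level as a block and 0 with the groups alone. Without 1 array these were 0 to 689 and 0 to 675, highest without wild-type replicate 1 and at most 2 without any other. With the replicate number as a block (replicate block), K42A against K42Q had 294 higher and 232 lower, and K42L against wild type 0 and 1. Deviations of same-numbered arrays correlated at -0.16 and 0.15, and nothing in the labels pairs them. Crossing the numbers of K42A and K42Q gave 454 and 401. The median of the lowest decile, 0.81, was -0.035 with quantile scaling, 0.0014 with cyclic loess, 0.67 with median centring, 1.03 and 0.94 with the spike-in scalings, 0.37 with 16 added and 0.75 to 0.91 without 1 array. Of single genes, CTR3 turned to 0.18 in the difference of differences, and GRE3 and HSP26 to 0.022 and 0.056 with spike-in scaling across all arrays. Quantile and loess scaling align the distributions by construction. Spike-in scaling across all arrays raises all K42A values against K42Q by construction, since spike-in means were 153 to 177 at the higher and 298 to 337 at the lower background level. Other causes were not tested. The 2 arrays per mutant and signals near background limit weak genes most.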
